A study of Mus musculus with 9 samples.

Results

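The Schlafen genes measured here were *Slfn1*, *Slfn2*, *Slfn3*, *Slfn4*, *Slfn5*, *Slfn8* and *Slfn9* of the mouse. They were taken by gene symbol. Each of the 7 matched 1 probe set that the array's annotation pairs with no other gene, so that 7 of 35557 probe sets are described, and no probe set with several symbols held a member. The family was selected on values from these same arrays, because *Slfn2* stood among the transcripts that were higher after TNF-α and lower in the knock-down. The values of *Slfn2* are therefore given as a description, with no test, whereas the other 6 members were brought in by their names.

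RNA was measured on Affymetrix Mouse Gene 1.0 ST arrays in 3T3 fibroblasts, a permanent culture line derived from mouse embryos. Of the wild-type cells, which expressed an irrelevant shRNA, 3 samples were unstimulated and 3 had received TNF-α at 5 ng/ml for 1 h. Cells of a clonal line with a stable knock-down of Trap-80, a Mediator subunit encoded by *Med17*, were measured after the same stimulation (n = 3). Unstimulated knock-down cells were not analysed here. Differences between the lines at rest and in their response to TNF-α therefore cannot be told apart. Nor can an effect of the knock-down be told apart from other traits of that clonal line. Errors, intervals and p-values below measure the spread between samples, not between clones.

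Schlafen genes encode proteins that share a core region of nucleic acid-binding and nuclease-like fold and were first described in developing and resting T lymphocytes, where some members restrain growth. The mouse family holds short members (*Slfn1* and *Slfn2*), intermediate ones (*Slfn3* and *Slfn4*) and long ones with a helicase-like carboxy-terminal part (*Slfn5*, *Slfn8*, *Slfn9* and *Slfn14*). Several of them are known to be induced by type I interferons, through the factor complex that binds the interferon-stimulated response element (ISRE). TNF-α acts on fibroblasts chiefly through NF-κB, which binds κB sites, and Mediator links such factors to RNA polymerase II.

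In RefSeq (build GRCm38.p6) the 7 members lay in a cluster at chr11:82951349-83215154, a stretch of 263806 bases. Their order was *Slfn5*, *Slfn9*, *Slfn8*, *Slfn2*, *Slfn1*, *Slfn4*, *Slfn3*, with pseudogenes and noncoding RNA genes between some of them. The 250 bases before the start site of 4 members follow, 5′ to 3′ on the strand of the gene. *Slfn2* and *Slfn3* are the members with the largest knock-down differences, and *Slfn9* holds matches to both κB and ISRE letters. *Slfn1* lies next to *Slfn2* and had a smaller knock-down difference (-0.16 in log2 units, 95% interval -0.64 to 0.32). Capitals in *Slfn2* and *Slfn3* mark ACTTCCTG or its reverse complement CAGGAAGT. In *Slfn1* they mark ACTTCCTG and then a κB match, and in *Slfn9* a κB match and then an ISRE match.
*Slfn2*, chr11:83064862-83065111, plus strand: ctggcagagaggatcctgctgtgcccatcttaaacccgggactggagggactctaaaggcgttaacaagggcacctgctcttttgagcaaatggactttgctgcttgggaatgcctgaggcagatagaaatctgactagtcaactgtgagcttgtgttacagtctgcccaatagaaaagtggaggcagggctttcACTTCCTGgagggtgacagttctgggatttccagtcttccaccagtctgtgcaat
*Slfn3*, chr11:83191080-83191329, plus strand: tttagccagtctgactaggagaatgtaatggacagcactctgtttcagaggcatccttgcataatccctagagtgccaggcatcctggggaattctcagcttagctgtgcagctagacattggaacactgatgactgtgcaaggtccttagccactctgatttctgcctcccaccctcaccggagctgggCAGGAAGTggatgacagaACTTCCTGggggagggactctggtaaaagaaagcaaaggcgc
*Slfn1*, chr11:83116570-83116819, plus strand: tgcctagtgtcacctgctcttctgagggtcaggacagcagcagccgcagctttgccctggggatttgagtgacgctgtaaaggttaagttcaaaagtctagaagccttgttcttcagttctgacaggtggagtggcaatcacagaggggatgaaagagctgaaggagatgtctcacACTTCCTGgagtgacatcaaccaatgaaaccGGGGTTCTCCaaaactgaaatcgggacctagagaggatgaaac
*Slfn9*, chr11:82991831-82992080, minus strand: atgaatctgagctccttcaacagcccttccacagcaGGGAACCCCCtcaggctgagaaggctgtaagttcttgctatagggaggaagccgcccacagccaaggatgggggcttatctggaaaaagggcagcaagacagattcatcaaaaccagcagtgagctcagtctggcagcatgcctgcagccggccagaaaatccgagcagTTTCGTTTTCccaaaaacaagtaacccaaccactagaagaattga

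Motifs were searched on both strands of windows of 300 bases, from 250 before to 50 after the start site. The κB letters GGGNNNNNCC matched *Slfn1* (GGGGTTCTCC, from 43 bases before the start) and *Slfn9* (GGGAACCCCC, from 214 bases before). The same letters occurred in 50.8% of all 32851 RefSeq promoter windows, and a stricter κB consensus, which both matches also met, in 4.51%. The ISRE letters TTTCNNTTTC matched *Slfn5*, *Slfn8* and *Slfn9* but not the long member *Slfn14*, and occurred in 3.44% of all windows. The AP-1 letters TGANTCA (7.81% of all windows) and the TATA box TATAAA (13.6%) matched *Slfn4* alone among the 7, and the GAS letters TTCNNNGAA (8.30%) matched none. The windows of *Slfn2* and *Slfn3* held none of these letters. Bases outside the windows were not searched here, whereas the paper looked for conserved κB motifs over a much wider region around start sites. Whether *Slfn2* or *Slfn3* has a κB site farther away is therefore unknown. The run ACTTCCTG, noticed after the sequences had been compared, was the first of 4 overlapping runs of 8 bases. Each was shared by 4 of 8 Schlafen windows (*Slfn14* included), though not by the same 4. The runs CTCCAGGA and TCCAGGAA occurred in *Slfn14* but not in *Slfn3*, and ACTTCCTG and CCAGGAAG in *Slfn3* but not in *Slfn14*. ACTTCCTG began 55 bases before the start of *Slfn2*, 74 before *Slfn1* and 73 before *Slfn4*. In *Slfn3* it lay 42 bases before the start, with its reverse complement at 60. It occurred in 2.69% of all windows of 250 bases. *Slfn8* and *Slfn9* were the most alike before their start sites, with 84.0% of the 250 bases identical in a global alignment, against 54.8% to 62.8% for the other pairs. A match is a description of the letters and was not tested for any factor's binding.

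The deposited values are log2 signals from the RMA method, which corrects for background, brings the arrays to a common distribution and summarises the probes of a probe set. Array medians lay between 4.47 and 4.59, and arrays correlated at 0.985 to 0.992 within groups and 0.981 to 0.992 between groups. *Med17* had a signal of 7.89 ± 0.11 (SD, n = 3) in stimulated wild-type and 6.25 ± 0.09 in knock-down cells, a difference of -1.64 (standard error 0.09, limma, adjusted p = 4.8e-05). All 3 knock-down arrays lay below all wild-type arrays (two-sided exact permutation p = 0.1, the lowest possible with 3 against 3). *Tnfaip3*, an NF-κB target that encodes the inhibitor A20, was 22.7-fold higher after TNF-α in wild-type cells (limma, adjusted p = 1.1e-05). In stimulated knock-down cells *Tnfaip3* was 10.4-fold above unstimulated wild-type cells (limma, adjusted p = 1.8e-05). It was lower there than in stimulated wild-type cells (-1.13, limma, adjusted p = 0.0047). Of 10 fibroblast markers 9 lay above the median probe set mean of 4.51, *Fap* being the exception. In the knock-down *Pdgfra* was lower (-1.89), and *Thy1* (2.09) and *S100a4* (0.55) were higher (limma, adjusted p = 0.011 at most). Averaged over each list, the 7 measured T-cell markers had array means of 3.30 to 3.52 and the 8 myeloid markers 3.71 to 3.85. Those of the 4 endothelial markers were 3.18 to 3.56 and those of the 4 epithelial markers 4.13 to 4.59. Single markers above the median were *Cd3e* (4.69) of the T-cell list and *Cd68* (5.47) and *Cd14* (5.46) of the myeloid list. *Krt8* (5.87) and *Cdh1* (4.54) of the epithelial list were also above it, and 0 endothelial markers were. No marker of these other cell types passed the test in any comparison.

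Most members had a low signal. The means of *Slfn1*, *Slfn2*, *Slfn4*, *Slfn5* and *Slfn8* over the 9 arrays, from 2.44 to 3.68, lay below the median of all probe sets' means, and those of *Slfn3* (4.83) and *Slfn9* (5.82) above it. No detection call was used here, so whether a dim member was above background is unknown. A position relative to this median depends on the probes as well as on the transcript, so the levels of the members were not ranked against each other. The probes' sequences were not used here, so cross-hybridisation between related members was not checked.

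*Slfn2*, whose product keeps T cells in a resting state, was higher after TNF-α in wild-type cells. In stimulated knock-down cells it was near the level of unstimulated wild-type cells. Its signal was 3.60, 3.17 and 3.58 in the 3 unstimulated wild-type arrays, 3.97, 4.03 and 4.53 in the stimulated wild-type arrays, and 3.25, 3.58 and 3.43 in the stimulated knock-down arrays. The stimulated wild-type arrays lay above all the others, and the remaining groups overlapped. The TNF-α response was 0.73 (standard error 0.17), or 1.66-fold, and the same-numbered arrays differed by 0.37, 0.86 and 0.95. The knock-down difference was -0.76 (standard error 0.17), which left 59.2% of the stimulated wild-type signal. Stimulated knock-down and unstimulated wild-type cells differed by -0.03 (standard error 0.17). These are the values that chose the gene, and only the third stimulated wild-type array reached the median probe set level. Without that array the TNF-α response was 0.55 and the knock-down difference -0.58.

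**Figure D1:**
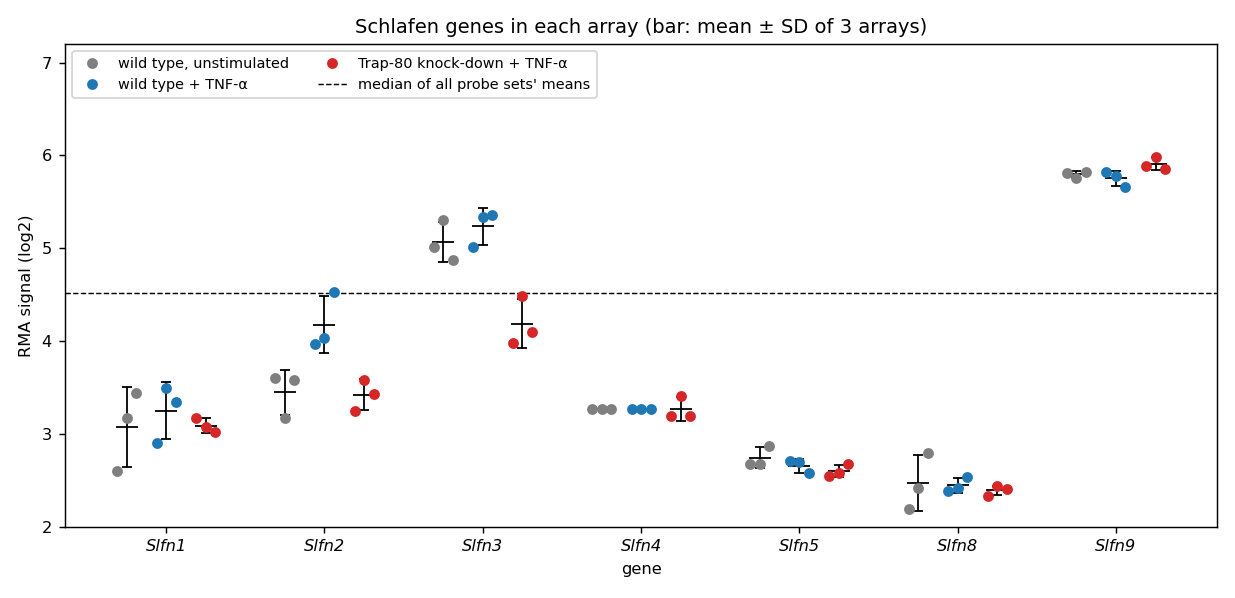
RMA signal (log2, vertical axis) of each Schlafen gene (horizontal axis) in the 3 arrays of each group, as points, with the group mean and SD as black bars and the median of all probe sets' means (4.51) as a dashed line. The stimulated wild-type arrays of *Slfn2* (3.97 to 4.53), the gene chosen for this pattern, stand above its other arrays. The knock-down arrays of *Slfn3* (3.98 to 4.48) stand below its wild-type arrays.

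*Slfn3*, an intermediate member studied in T cells and in the differentiation of gut epithelium, was lower in the knock-down. Its signal was 5.01, 5.30 and 4.88 in the unstimulated wild-type arrays, 5.01, 5.34 and 5.36 in the stimulated wild-type arrays, and 3.98, 4.48 and 4.10 in the knock-down arrays. All 6 wild-type arrays lay above the median probe set level and all 3 knock-down arrays below it, with no overlap. The knock-down difference was -1.05 (standard error 0.16, 95% interval -1.41 to -0.69, limma, adjusted p = 0.0054), and the signal left was 48.3% of that in stimulated wild-type cells. Same-numbered arrays differed by -1.03, -0.85 and -1.26. Against unstimulated wild-type cells the difference was -0.87 (standard error 0.16, limma, adjusted p = 0.010), a comparison that shares the knock-down arrays with the previous one. An exact permutation test gave p = 0.1 for each, two-sided. The TNF-α response of *Slfn3* in wild-type cells was 0.18 (standard error 0.16, 95% interval -0.19 to 0.54, limma, adjusted p = 0.82), and those groups overlapped. The responses of *Slfn2* and *Slfn3* to TNF-α were not tested against each other, since *Slfn2* was chosen for its response.

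*Slfn3* was the only one of the 6 members other than *Slfn2* that passed the test in the knock-down comparison, and 0 of the 6 passed for TNF-α (limma, with 0 of 6 also at an unadjusted p under 0.05). Over all 23410 probe sets tested, 5.96% passed for the knock-down (2.60% lower) and 0.115% for TNF-α. Against unstimulated wild-type cells *Slfn3* was again the 1 member of 6 that passed, where 8.25% of all probe sets did and 4.62% were lower. The median knock-down difference of the 6 was -0.06, beside -0.02 over all probe sets tested, and their median TNF-α response was -0.01, beside -0.02. Of all 7 members, the arrays of 1 did not overlap between the groups of the TNF-α comparison (10.2% of all probe sets), those of 3 in the knock-down comparison (20.9%) and those of 2 between stimulated knock-down and unstimulated wild-type cells (23.4%). These counts rest on few members and include the gene that was chosen.

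**Figure D2:**
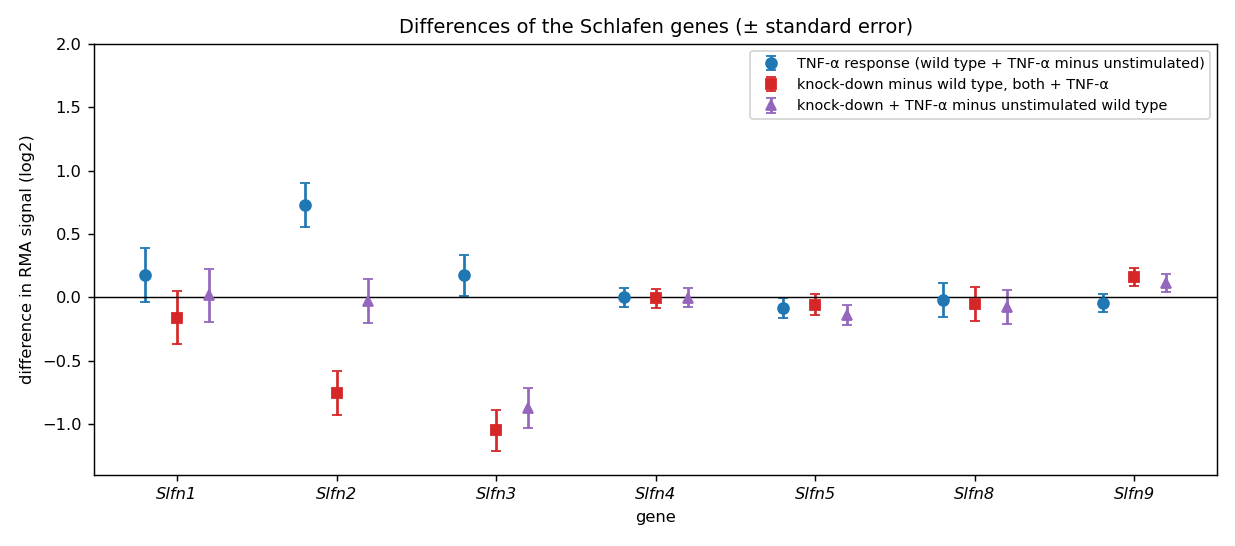
Differences in RMA signal (log2, vertical axis) for each Schlafen gene (horizontal axis) in the 3 comparisons, as points with standard errors from the limma model. *Slfn2*, the gene chosen for this pattern, has a TNF-α response of 0.73, and those of the other 6 genes lie between -0.08 and 0.18. The knock-down differences of *Slfn2* (-0.76) and *Slfn3* (-1.05) lie below those of the other 5 genes.

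*Slfn9*, a long member, was the one other gene whose knock-down arrays did not overlap with the stimulated wild-type arrays. Its signal was 5.81, 5.76 and 5.82 in unstimulated wild-type, 5.82, 5.77 and 5.66 in stimulated wild-type and 5.89, 5.99 and 5.86 in knock-down arrays. The knock-down arrays were the highest, and the wild-type groups overlapped. The knock-down difference, 0.16 (standard error 0.07, 95% interval -0.0019 to 0.32), did not pass the test (limma, adjusted p = 0.29), and the TNF-α response was -0.04 (95% interval -0.20 to 0.12).

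*Slfn8*, the long member next to *Slfn9*, and *Slfn5*, the long member at one end of the cluster, were dim in every array. *Slfn8* ranged from 2.19 to 2.79 in unstimulated wild-type, from 2.38 to 2.53 in stimulated wild-type and from 2.33 to 2.44 in knock-down arrays. Its knock-down difference was -0.05 (95% interval -0.35 to 0.25). *Slfn5* ranged from 2.68 to 2.87, from 2.57 to 2.70 and from 2.54 to 2.68 in the same groups, with a knock-down difference of -0.06 (95% interval -0.24 to 0.13). The groups of both genes overlapped in each comparison, and none of their differences passed the test.

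*Slfn1*, a short member first studied in thymocytes, had the widest spread among arrays of 1 group. It measured 2.61, 3.17 and 3.44 in unstimulated wild-type, 2.90, 3.50 and 3.35 in stimulated wild-type and 3.17, 3.07 and 3.02 in knock-down arrays. The groups overlapped. Its TNF-α response was 0.18 (95% interval -0.30 to 0.65), which reaches 1.57-fold, and its knock-down difference was -0.16 (95% interval -0.64 to 0.32).

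*Slfn4*, an intermediate member known from macrophages, had nearly the same value in all wild-type arrays. It measured 3.27 in each of the 6 wild-type arrays, 5 of which held exactly the same deposited value, and 3.19, 3.41 and 3.19 in the knock-down arrays. Among all probe sets, 30.7% held 1 value in 3 or more of the 9 arrays and 8.21% in 5 or more. The knock-down difference was -0.01 (standard error 0.08, 95% interval -0.18 to 0.16), and this error leans on the spread of other probe sets.

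Other transcripts with a Schlafen name had no difference that passed the test. They were the pseudogene *Slfn10-ps* between *Slfn8* and *Slfn2* (means of 3.19, 3.27 and 3.21 in unstimulated wild-type, stimulated wild-type and knock-down cells), the antisense transcript *Slfn5os* (3.02, 2.92 and 2.95) and the distant relative *Slfnl1* (4.43, 4.62 and 4.51). No probe set was named *Slfn14*, *Slfn6* or *Slfn7*. Whether the array tells *Slfn5* and its antisense partner apart was not checked here.

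Genes beside the cluster were measured on the same arrays. Of 17 genes within the cluster or among the 5 nearest protein-coding genes on either side, 9 were measured. In the knock-down comparison 0 of the 9 passed the test (limma, with 3 at an unadjusted p under 0.05). Over all probe sets tested, 5.96% passed for the knock-down, 0.115% for TNF-α and 8.25% between stimulated knock-down and unstimulated wild-type cells. With 9 genes at such shares, a count of 0 is no result about the locus. *Slfn2* and *Slfn3* are themselves separated by *Slfn1* and *Slfn4*. For TNF-α 1 of the 9 passed: *Rffl*, a ubiquitin ligase gene at the *Slfn5* side, measured 4.96, 5.12 and 4.98 unstimulated and 5.58, 5.63 and 5.68 stimulated, a response of 0.61 (standard error 0.07, limma, adjusted p = 0.019). The call for *Rffl* was lost in 9 of 15 alternative fits (adjusted p from 0.011 to 0.12), among them those without any 1 of the 6 wild-type arrays or without knock-down array 1. Between stimulated knock-down and unstimulated wild-type cells *Rffl* was higher (0.43, limma, adjusted p = 0.0073) and *Rad51d*, a DNA repair gene, lower (-0.37, limma, adjusted p = 0.032). The call for *Rad51d* was lost in 10 of 15 alternative fits, with an adjusted p of up to 0.11. In 7 of these a single array was left out, namely any wild-type array but the third stimulated one, knock-down array 1 or knock-down array 3.

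**Figure D3:**
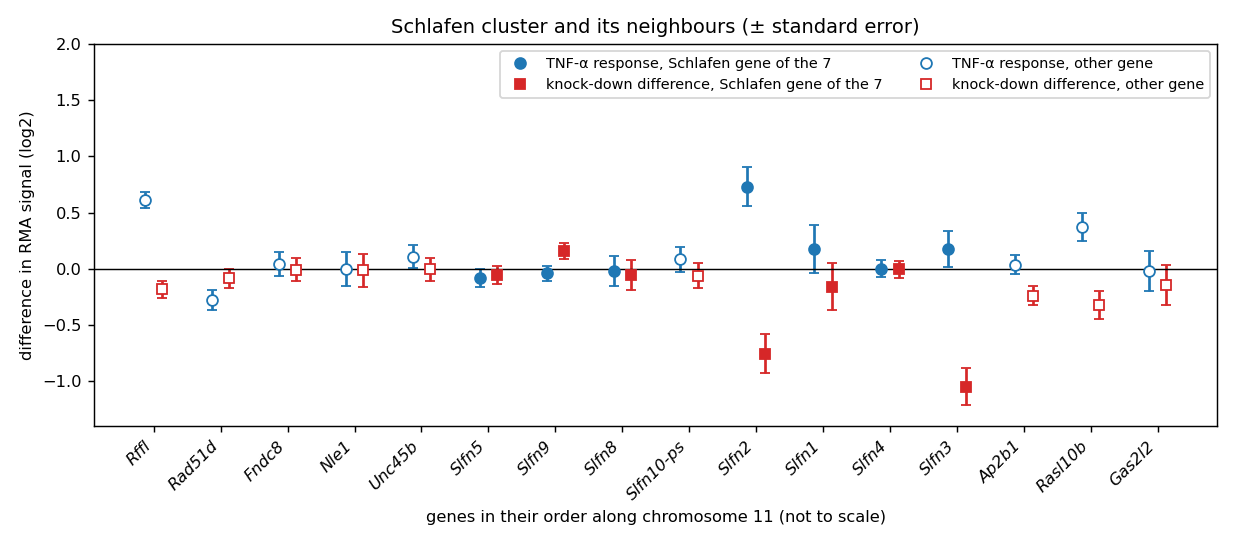
TNF-α responses (circles) and knock-down differences (squares) in log2 units (vertical axis, with standard errors) of the Schlafen genes (filled) and the measured neighbours (open), in their order along chromosome 11, not to scale. The knock-down differences are -0.76 for *Slfn2*, the gene chosen for this pattern, and -1.05 for *Slfn3*, and those of the genes between and beside them lie between -0.33 and 0.16.

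Genes of the interferon pathway were set beside the family because interferons are known inducers of Schlafen genes. Of 40 measured interferon-response genes, 2 were higher after TNF-α, where 0.111% of all probe sets tested were, and 5 were lower in the knock-down, where 2.60% were. The median knock-down difference of the list was -0.12, beside -0.02 over all probe sets, and its median TNF-α response was 0.01. *Cxcl10*, a chemokine gene that NF-κB also drives, rose from a mean of 6.70 to 10.72 after TNF-α, a response of 4.03 (standard error 0.38, limma, adjusted p = 0.0049). *Irf1*, a transcription factor gene that NF-κB also drives, rose from 7.97 to 10.43, a response of 2.46 (standard error 0.30, limma, adjusted p = 0.022). Among the genes lower in the knock-down were *Cxcl10* (-1.53, limma, adjusted p = 0.047), *Irf9*, the DNA-binding subunit of the ISRE-binding complex (-0.98, limma, adjusted p = 0.026), *Tap1*, a peptide transporter of antigen presentation (-0.65, limma, adjusted p = 0.012), and *Ifitm3*, an antiviral membrane protein (-0.61, limma, adjusted p = 0.0090). The fifth was *Bst2*, encoding tetherin (-0.51, limma, adjusted p = 0.035), which is named only to complete the count, after its value was seen. *Irf9* measured 6.14, 6.14 and 6.63 in stimulated wild-type and 5.58, 5.22 and 5.18 in knock-down arrays, with no overlap.

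Which single genes passed depended on the fit. The count of 5 was 2 with all probe sets of the array tested, and 2 without stimulated wild-type array 1, knock-down array 1 or knock-down array 2. It was 3 without unstimulated array 1, stimulated wild-type array 2 or 3, or knock-down array 3. For TNF-α the count of 2 fell to 1 without any single array except knock-down array 3, *Irf1* being the gene lost (adjusted p up to 0.16). The size of the *Irf1* response stayed between 2.16 and 2.66 over the 15 alternative fits. Its adjusted p was lowest with the replicate block (limma, 3.1e-05). *Ifitm3* passed in all 15 alternative fits (adjusted p 0.0019 to 0.043), and *Tap1* in all but the one without knock-down array 1 (0.0064 to 0.053). *Irf9* (up to 0.10), *Bst2* (up to 0.12) and *Cxcl10* (up to 0.16) lost the call in 6, 9 and 10 of the 15. These include the fits without any 1 stimulated wild-type array for all 3 genes. They also include those without knock-down array 2 or 3 for *Irf9*, without unstimulated array 1 or any knock-down array for *Bst2*, and without any unstimulated array, knock-down array 1 or knock-down array 2 for *Cxcl10*.

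Of 9 interferon ligands, receptors and receptor kinases, 1 was lower in the knock-down, where 2.60% of all probe sets tested were. *Ifnar1*, a chain of the type I interferon receptor, measured 8.03, 7.97 and 8.63 in stimulated wild-type and 7.23, 7.36 and 7.63 in knock-down arrays, a difference of -0.80 (standard error 0.19, limma, adjusted p = 0.037). This call was lost in 10 of 15 alternative fits (adjusted p 0.0026 to 0.13), which include those without any single array except the third unstimulated one. The interferon gene *Ifnb1* was dim in all groups, with means of 2.60, 2.76 and 2.65, and neither it nor *Ifna4* passed the test in any comparison. Between stimulated knock-down and unstimulated wild-type cells 6 of the 40 response genes passed the test, 2 higher and 4 lower, where 8.25% of all probe sets passed and 4.62% were lower. They included *Trim25*, a ubiquitin ligase of antiviral signalling, at -0.77 (standard error 0.13, limma, adjusted p = 0.0080). The interferon-γ receptor gene *Ifngr1* was higher there, at 0.71 (standard error 0.14, limma, adjusted p = 0.014), a call lost without unstimulated array 1 (adjusted p = 0.052).

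**Figure D4:**
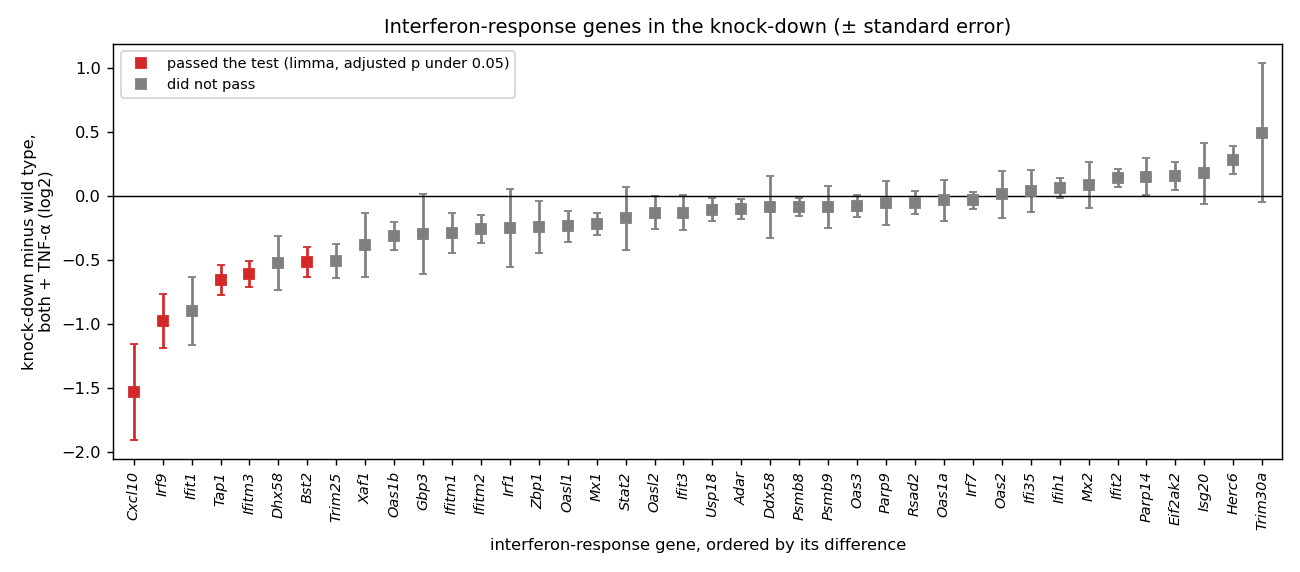
Knock-down differences (log2, vertical axis, with standard errors) of the 40 measured interferon-response genes, ordered by size. The 5 genes that passed the limma test (red) lie between -1.53 and -0.51, and the other genes (grey) lie between -0.90 and 0.50.

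The genes whose signals followed that of *Slfn2* most closely over the 9 arrays were named by Pearson's correlation among 19945 other genes. They were *Ptprv*, a receptor-type tyrosine phosphatase (r = 0.97), *A230051N06Rik* (0.95), *Pard6g*, a cell polarity gene (0.95), *Mrc1*, a mannose receptor (0.94), and *Gpr153*, an orphan receptor (0.94). Their changes were smaller than that of *Slfn2*, with TNF-α responses of 0.08 to 0.38 and knock-down differences of -0.48 to -0.12. All but *Pard6g* had means below the median probe set level. In all, 19 genes reached a correlation of 0.9 over these 9 arrays, which share 3 groups, so the values describe these arrays only. *Slfn2* and *Slfn3* correlated at 0.56 over the same arrays.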

How the data were processed

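RNA of 3 groups of 3 samples was hybridised to Affymetrix Mouse Gene 1.0 ST arrays. The authors deposited log2 values from RMA, for which no source used here names a version. The methods describe independent samples. Of 35557 probe sets, 21797 list 1 gene symbol, 1613 several and 12147 none here, and the 23410 with a gene were tested, with no rescaling and no filter. The 3 groups were fitted together over the 9 arrays with lmFit and eBayes of limma 3.58.1 in R 4.3.3, with Benjamini-Hochberg adjustment and a threshold of 0.05, after a test on simulated data. Levels were set against the median of all probe sets but not against each other, and the number of arrays limits the precision.

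Deviations from the group means correlated between same-numbered arrays at 0.110 to 0.403 (TNF-α) and 0.147 to 0.465 (knock-down). The numbers were therefore also tried as a block. They pair the samples only by these deviations (0.002 to 0.221 between unstimulated and knock-down arrays), since what a number marks is not stated.

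The members, gene lists, motifs and naming rule were chosen with earlier results of these data known. Named were the members, other Schlafen transcripts, called neighbours, up to 8 called interferon genes with the largest differences, the 5 genes most correlated with *Slfn2*, and *Med17* and *Tnfaip3* as checks. Sequences and coordinates came from RefSeq (GRCm38.p6), which held promoters for all 7 members.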

Additional observations from a re-analysis of the deposited data

How the results depend on the processing

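The differences of the 6 tested members, of *Med17* and of the neighbours and interferon genes that passed, the counts of members and the 2 interferon-response counts for TNF-α and the knock-down were recomputed with a replicate block, with arrays centred on their medians, with only the 6 arrays compared, with all probe sets tested, with only probe sets above the median level, with a trended and robust variance prior, and without each array in turn. *Slfn3* passed the test for the knock-down in all 15 (log2 difference -1.20 to -0.94, adjusted p 0.0011 to 0.029) and against unstimulated wild-type cells (-1.02 to -0.76, 0.0019 to 0.045). None of the other 5 tested members passed in any of them. The filter on level left out *Slfn1*, *Slfn4*, *Slfn5* and *Slfn8*. For *Slfn2* only centring, quantile normalization, same-numbered differences and leaving out arrays were tried. Without single arrays its TNF-α response stayed between 0.55 and 0.83 and the knock-down difference between -0.86 and -0.58. The same-numbered differences ranged more widely, from 0.37 to 0.95 for TNF-α and from -1.10 to -0.45 for the knock-down. *Med17* ranged from -1.70 to -1.58.

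The interferon-response count for TNF-α (2) was 1 with only 6 arrays, 1 with all probe sets tested and 1 to 2 without single arrays. That for the knock-down (5) was 2 with all probe sets tested and 2 to 5 without single arrays. With the replicate block these counts were 2 and 6, *Slfn3* stood at -1.05 (limma, adjusted p = 0.0011), and no call of a named gene changed. Of 651 recomputed values, 99 lost a call or gave a smaller count and 0 reversed a call. Of the uncalled differences of members, 15 recomputed values had the other sign, and centring moved the TNF-α response of *Slfn4* from 0.00 to -0.05. The causes were not tested. Dim signals limit what can be said of *Slfn1*, *Slfn2*, *Slfn4*, *Slfn5* and *Slfn8*.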
